A study of Homo sapiens with 2 samples.

Results

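The promoters of 48 proteasome genes were examined for open chromatin in BEAS-2B cells (B2B), an immortalized line of human bronchial epithelial origin. The genes were all protein-coding genes of GENCODE 44 whose symbols start with PSMA, PSMB, PSMC, PSMD, PSME, PSMF or PSMG followed by a number, and they made up 48 of 20007 protein-coding genes in the annotation. They were read in 2 parts, the 5 immunoproteasome genes PSMB8, PSMB9, PSMB10, PSME1 and PSME2, and the 43 other members. The rule used gene symbols and no measured value, and it was set with earlier results of these data known.

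The data were ATAC-seq peak lists of 2 biological replicates of wild-type, untreated B2B cells. In ATAC-seq, a transposase inserts sequencing adapters where DNA is accessible, so that open regions collect more fragments than their surroundings. Both samples belong to 1 condition. There was thus no contrast between groups, and no test was run. All spread given is between the 2 replicates, and the members were not treated as replicates of anything.

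The proteasome is the protease that degrades most ubiquitin-tagged protein in the cell. Its barrel-shaped core is built of outer alpha rings, which gate the channel, and inner beta rings, which hold the catalytic sites, and it is capped by a regulatory particle with an ATPase base that unfolds substrates and a lid that removes ubiquitin. In cells exposed to interferon, PSMB8, PSMB9 and PSMB10 replace the standard catalytic subunits PSMB5, PSMB6 and PSMB7 to form the immunoproteasome, which favours peptides for presentation on class I molecules, and PSME1 and PSME2 form the PA28 activator that caps it.

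In the listed peaks, fold enrichment is the number of fragments at the summit, the highest point of the peak, divided by a background. Each of the numbers has 1 added. The most common background was 4.77 fragments in replicate 1 and 3.41 in replicate 2. Among the strongest peaks near the members' starts, the background exceeded this level at only 3 of 39 and 12 of 41. The surroundings of most of these peaks thus did not enter their values. The lists held 28735 and 36162 peaks on chromosomes 1 to 22, X and Y, with a median of 35 and 30 fragments at the summit, and the weakest held 16 and 13. A promoter with no peak therefore stayed below the calling limit at this depth and was not shown to be closed. The labelled cell type was checked against markers. Of 12 epithelial markers 1, KRT18, had a peak within 1 kb of its start in both replicates, against 52.3% of all protein-coding genes. Such a peak was found at 8 of 12 mesenchymal markers and 1 of 8 blood and immune markers (CD14). CDH1, EPCAM, KRT5, KRT14 and TP63 had none. The KRT18 summits lay 752 and 746 bp downstream of its start. Within 100 bp of the start, 5 mesenchymal markers and 0 epithelial markers had a peak in both replicates. These markers thus did not bear out an epithelial identity. Median CpG counts were 44.5 (epithelial), 52 (mesenchymal) and 15 (blood and immune), and their part was not tested.

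The DNA that carries the main contrasts of these promoters is shown first, read from the hg38 genome in the direction of the gene, 5′ to 3′. PSMC4 and PSMD10 had the highest mean fold enrichment among the members, PSMB9 was an immunoproteasome gene with a strong peak over its start, and PSMB7 and PSMB10 were a standard catalytic gene and its immunoproteasome replacement, neither of which had a peak at its start. Each run lies just upstream of the transcription start site (TSS) and leaves out annotated UTR. Capitals mark matches, on either strand, of the 9 short motifs described further on.
PSMC4 promoter, chr19:39971005-39971164, hg38, plus strand: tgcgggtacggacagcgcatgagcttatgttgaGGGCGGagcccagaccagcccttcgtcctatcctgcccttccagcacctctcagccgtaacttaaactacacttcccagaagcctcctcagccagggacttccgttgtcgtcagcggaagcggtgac
PSMD10 promoter, chrX:108091543-108091667, hg38, minus strand: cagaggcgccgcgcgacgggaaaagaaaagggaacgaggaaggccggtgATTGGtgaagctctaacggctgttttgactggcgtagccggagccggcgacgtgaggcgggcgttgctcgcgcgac
PSMB9 promoter, chr6:32854032-32854191, hg38, plus strand: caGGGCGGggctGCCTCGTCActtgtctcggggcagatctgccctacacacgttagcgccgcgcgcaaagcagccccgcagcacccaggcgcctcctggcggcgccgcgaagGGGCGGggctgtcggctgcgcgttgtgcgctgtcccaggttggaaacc
PSMB7 promoter, chr9:124415445-124415604, hg38, minus strand: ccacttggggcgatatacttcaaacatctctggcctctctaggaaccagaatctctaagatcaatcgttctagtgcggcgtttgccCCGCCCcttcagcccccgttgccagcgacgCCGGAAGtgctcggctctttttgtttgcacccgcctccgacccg
PSMB10 promoter, chr16:67936851-67937010, hg38, minus strand: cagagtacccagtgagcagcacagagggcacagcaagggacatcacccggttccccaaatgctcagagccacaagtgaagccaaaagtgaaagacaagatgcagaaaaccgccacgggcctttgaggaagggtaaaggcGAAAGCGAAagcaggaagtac

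A promoter peak was defined as a peak overlapping, by at least 1 bp, the window reaching 1 kb up and 1 kb down from the start of the canonical transcript. Of the 48 members, 39 (81.25%) had such a peak in both replicates. Among the 20007 genes of the annotation it was 52.3%. In replicate 1 the members with a promoter peak numbered 39, or 81.25% against 53.2% of all genes, and in replicate 2 they numbered 41, or 85.4% against 58.0%. The 2 members with a promoter peak only in replicate 2 were PSMA4, an alpha ring subunit, and PSMB5, the chymotrypsin-like catalytic subunit. PSMB4, PSMB6, PSMB7, PSMA8, PSMB11, PSME3 and PSMG2 had no promoter peak in either replicate.

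**Figure D1:**
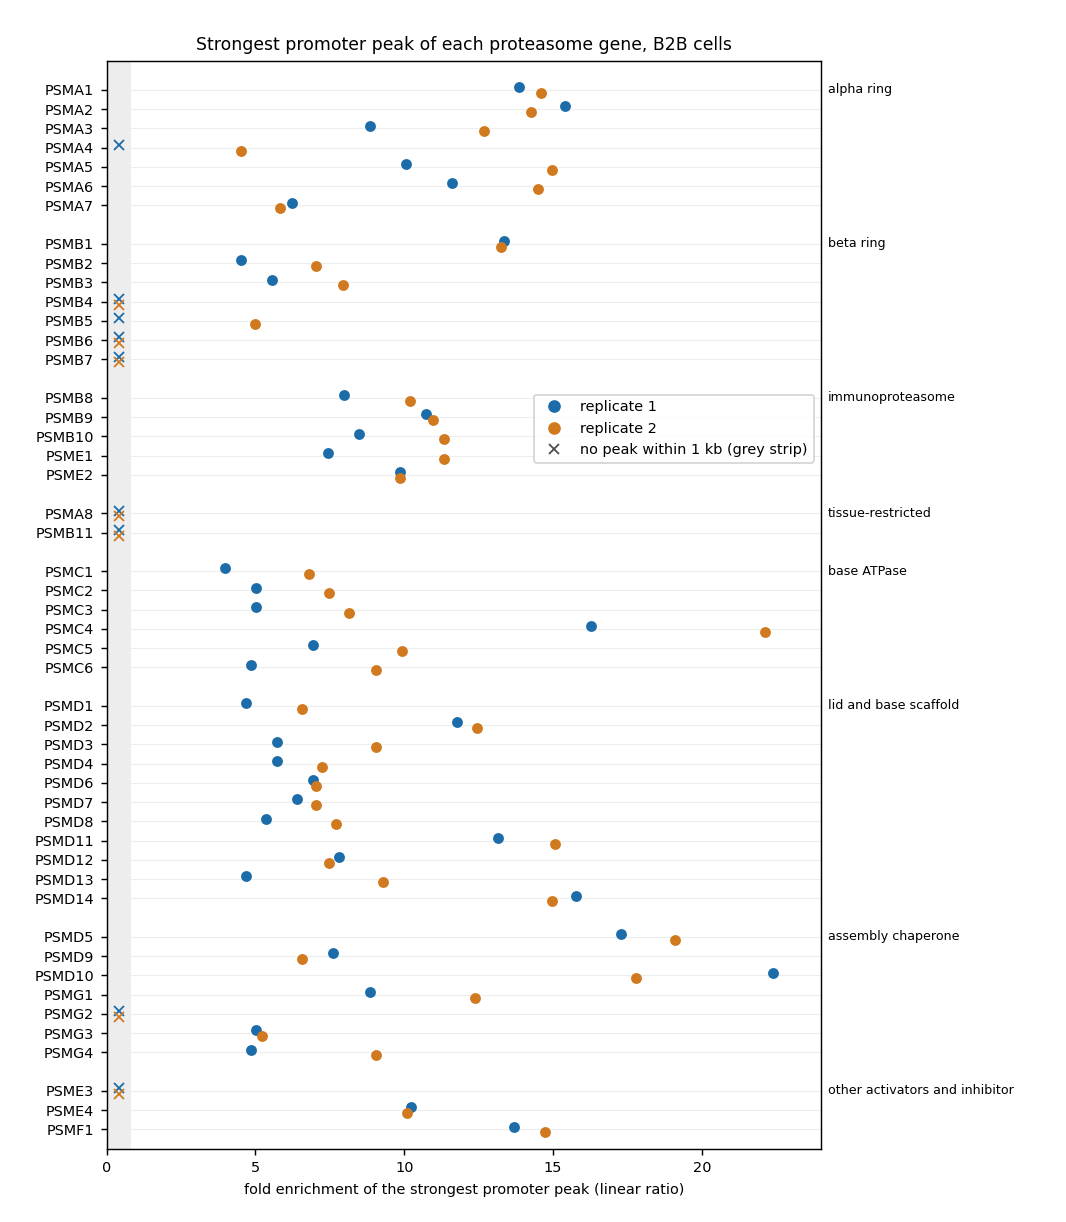
Fold enrichment (linear ratio, x axis) of the strongest promoter peak of each of the 48 proteasome genes, grouped by role, in replicate 1 (blue) and replicate 2 (orange). Crosses in the grey strip mark members with no peak within 1 kb of the TSS. PSMD10 and PSMC4 lie farthest to the right, and 3 of the 7 standard beta ring genes have a cross for both replicates.

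The share of promoters with a peak rose with CpG count up to the sixth of 10 groups, where it was 73.7%. In the groups above, it stayed between 72.1% and 76.5%. The members were therefore also set against genes of like CpG count. The median number of CpGs within 500 bp of the TSS was 65 for the members and 66 for all genes. In the upper 5 of 10 groups by CpG count, 18 of 21 members (85.7%) had a peak in both replicates, against 73.9% of all genes in those groups. With each member given the share of its own CpG group, 64.4% of the members would have had a peak, against the 81.25% measured. No member fell in the lowest 2 groups, in which 2.10% and 6.57% of all promoters had a peak. Among the members, those with a peak in both replicates had a median of 65 CpGs and those without had 46. PSMC2, an ATPase of the base, had a peak at 25 CpGs, while PSMG2, a chaperone of core assembly, and PSME3, the nuclear activator PA28 gamma, had none at 90 and 80.

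**Figure D2:**
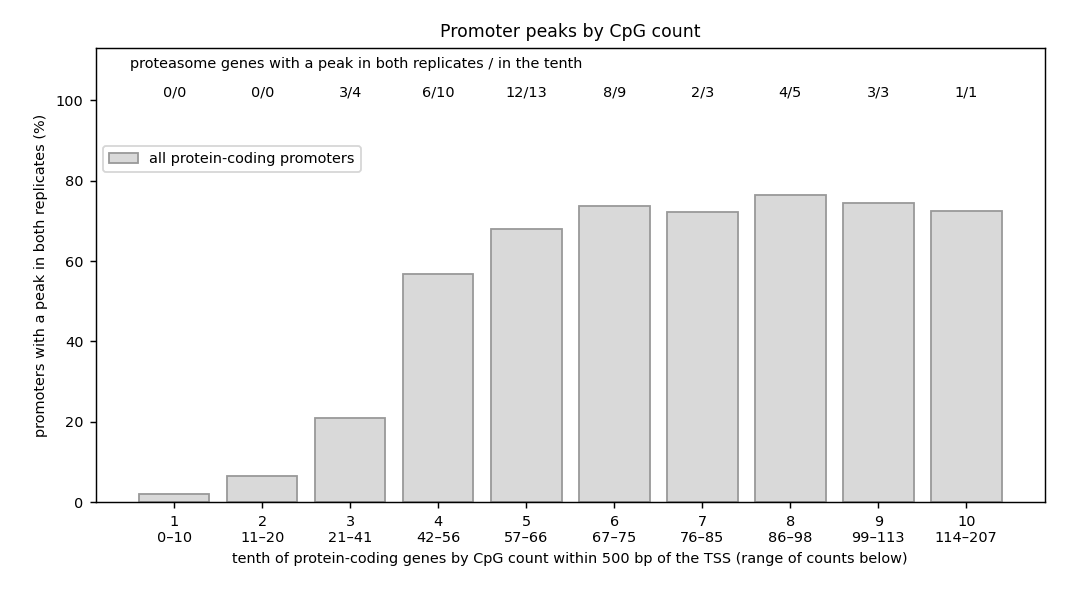
Percentage of all protein-coding promoters with a peak in both replicates (bars, y axis) in 10 groups of similar size by CpG count within 500 bp of the TSS (x axis, with the range of counts). The numbers above the bars give the proteasome genes with a peak over the proteasome genes in the group, for example 12 of 13 in the fifth group, where the bar stands at 68.0%.

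The strength of the members' peaks was close to that of other promoters. The median fold enrichment of the strongest promoter peak of the members was 7.80 and 9.86 in the 2 replicates, which gives 8.83 ± 1.46 (SD, n = 2). For all protein-coding promoters with a peak it was 7.97 and 9.06, or 8.52 ± 0.773 (SD, n = 2). The difference between these means was smaller than the spread between replicates. The median member stood at percentile 48.0 and 56.9 of all promoter peaks, and 18 of 39 and 25 of 41 members stood above the middle. The members ranged from 3.98 to 22.4 in replicate 1 and from 4.53 to 22.1 in replicate 2, with between 22 and 137 and between 19 and 120 fragments at the summit.

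**Figure D3:**
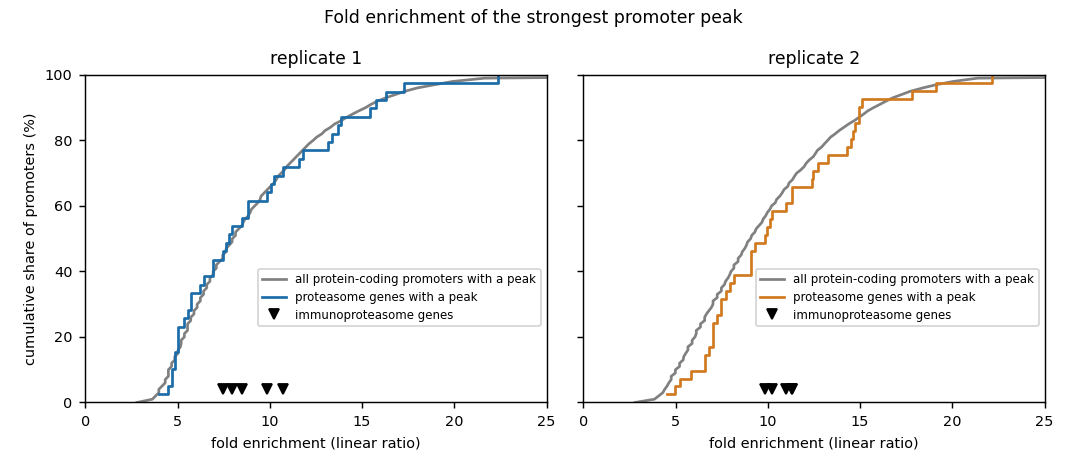
Cumulative percentage of promoters (y axis) by the fold enrichment (linear ratio) of their strongest promoter peak (x axis) in replicate 1 (left) and replicate 2 (right). Grey lines are all protein-coding promoters with a peak, coloured steps the proteasome genes with a peak, and triangles the 5 immunoproteasome genes, which lie between 7.45 and 10.7 in replicate 1 and between 9.86 and 11.3 in replicate 2.

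The order of the members was similar in both replicates. Across the 39 members with a peak in both, Spearman's rho of fold enrichment between replicates was 0.841, and across all 10457 such promoters it was 0.857. These are descriptions across genes that share the same pair of libraries. Replicate 2 gave the higher value for 30 of the 39. The median log2 ratio of replicate 2 over replicate 1 was 0.34, against 0.19 for all promoters, and the members ranged from -0.33 to 0.99. The members' summits held a median of 44 fragments in both replicates, while the most common background was 4.77 and 3.41 fragments. A higher fold enrichment in replicate 2 therefore does not by itself mean more fragments at the summit. When the 39 were ordered by mean fold enrichment, 36 of the 38 pairs of neighbours had overlapping ranges, so the order is not resolved finely. The 0.19 is called the common shift here, and the 3 members whose log2 ratio departed most from it were PSMD13, PSMC6 and PSMG4.

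Among the alpha ring genes, which form the outer gate of the core, 6 of 7 had a peak in both replicates. Among all genes it was 52.3%, and 68.0% among those with 57 to 66 CpGs, which holds the class median of 61. The median fold enrichment of the class was 10.8 and 14.3. PSMA2 had 15.4 and 14.3 with 88 and 62 fragments, or 14.8 ± 0.811 (SD, n = 2), and PSMA1 had 13.9 and 14.6. PSMA6 had 11.6 and 14.5, PSMA5 10.05 and 14.95, and PSMA3 8.84 and 12.7. These 5 genes were at or above the median of all promoters in both replicates. PSMA7 was much lower at 6.24 and 5.83, or 6.04 ± 0.286 (SD, n = 2). It had the most CpGs of any member (157) and carried weaker peaks 1070 and 1124 bp upstream. PSMA4 had no promoter peak in replicate 1, where the nearest peak was 24830 bp away, and a weak peak of 4.53 with 19 fragments in replicate 2, which began 1 bp past the TSS.

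The standard beta ring genes, which include the catalytic subunits, had peaks least often among the classes of 5 or more genes. A peak in both replicates was found at 3 of 7 (42.9%), a count near the 52.3% of all genes. These 3 were the non-catalytic PSMB1, PSMB2 and PSMB3. None of the 3 catalytic genes was among them. PSMB5, the chymotrypsin-like subunit, had no promoter peak in replicate 1 and a weak peak of 4.98 with 21 fragments, 362 bp upstream of the TSS, in replicate 2. PSMB6, the caspase-like subunit, had none in either replicate, and the nearest peaks began 5710 and 5568 bp upstream. PSMB7, the trypsin-like subunit, had none, and the nearest peaks lay 22256 and 22236 bp downstream inside the gene. PSMB4, a non-catalytic subunit, had none within 52045 and 51965 bp. The CpG counts of PSMB5, PSMB6 and PSMB7 were 43, 45 and 46, in a group in which 56.7% of all promoters had a peak, and PSMB4 had 70. The part of CpG count in these missing peaks was not tested.

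The beta ring genes that did have peaks were mostly weak. PSMB2 had 4.50 and 7.02, or 5.76 ± 1.78 (SD, n = 2), and PSMB3 had 5.54 and 7.93. PSMB1 stood apart with a strongest peak of 13.3 in each replicate, but its summit lay 937 and 959 bp upstream of PSMB1 and only 125 and 103 bp from the TSS of TBP, the TATA-binding protein gene on the other strand. The peak over the PSMB1 start itself had a fold enrichment of 7.95 and 7.14 with 54 and 42 fragments.

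The 5 immunoproteasome genes all had a peak within 1 kb in both replicates, 5 of 5. Among the other members it was 34 of 43 (79.1%), and among all genes 52.3%. The median fold enrichment of the 5 genes was 8.49 and 10.98, against 7.28 and 9.06 for the other members. The 8.49 was the value of PSMB10, from a peak that did not cover its start, so these medians are not the strength at the genes' own starts. Of these peaks, however, not all lay at the canonical start. When only peaks within 100 bp of the TSS were counted, a limit chosen after the values were seen, 3 of the 5 remained, against all 34 of the other members with a promoter peak and 48.0% of all genes. With that limit 37 of the 48 members (77.1%) were counted.

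PSMB9 and PSMB8 lie 10145 bp apart on chromosome 6. PSMB9 had 10.7 and 10.98 with 61 and 60 fragments, or 10.9 ± 0.169 (SD, n = 2), in peaks 719 and 823 bp wide that covered the TSS. These peaks also lay within 1 kb of the start of TAP1, which encodes a subunit of the class I peptide transporter and runs the other way from 488 bp upstream. PSMB8 had 7.97 and 10.2 with 45 and 44 fragments, or 9.08 ± 1.57 (SD, n = 2), with summits 680 and 678 bp upstream of the canonical TSS. These summits fell 48 and 46 bp upstream of the outermost annotated start of PSMB8. At the canonical start of PSMB8 a separate peak was listed only in replicate 2, at 4.30 with 18 fragments. Neither list held any peak on the alternate sequences of the genome build, which repeat this part of chromosome 6.

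PSMB10, on chromosome 16, had no peak over its start in either replicate. It was counted through a peak of 8.49 and 11.3, or 9.91 ± 2.01 (SD, n = 2), whose nearest edges lay 839 and 828 bp downstream of the TSS and whose summits lay 1065 and 991 bp downstream. The summits were nearer to the start of another annotated protein-coding gene that has no symbol in the annotation, 144 and 218 bp away. PSMB10 had 36 CpGs.

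PSME1 and PSME2, the alpha and beta subunits of PA28, lie 10416 bp apart on chromosome 14. PSME1 had 7.45 and 11.3 with 42 and 49 fragments, or 9.39 ± 2.74 (SD, n = 2), with summits 87 and 94 bp upstream. PSME2 had 9.88 and 9.86, or 9.87 ± 0.00868 (SD, n = 2), with summits 707 and 781 bp upstream, towards RNF31, a ubiquitin ligase gene that starts 888 bp away on the other strand. In replicate 1 PSME2 also had a separate peak near its own start, at 9.27 with 61 fragments and a summit 118 bp upstream. In replicate 2 a single peak 1060 bp wide spanned both places.

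**Figure D4:**
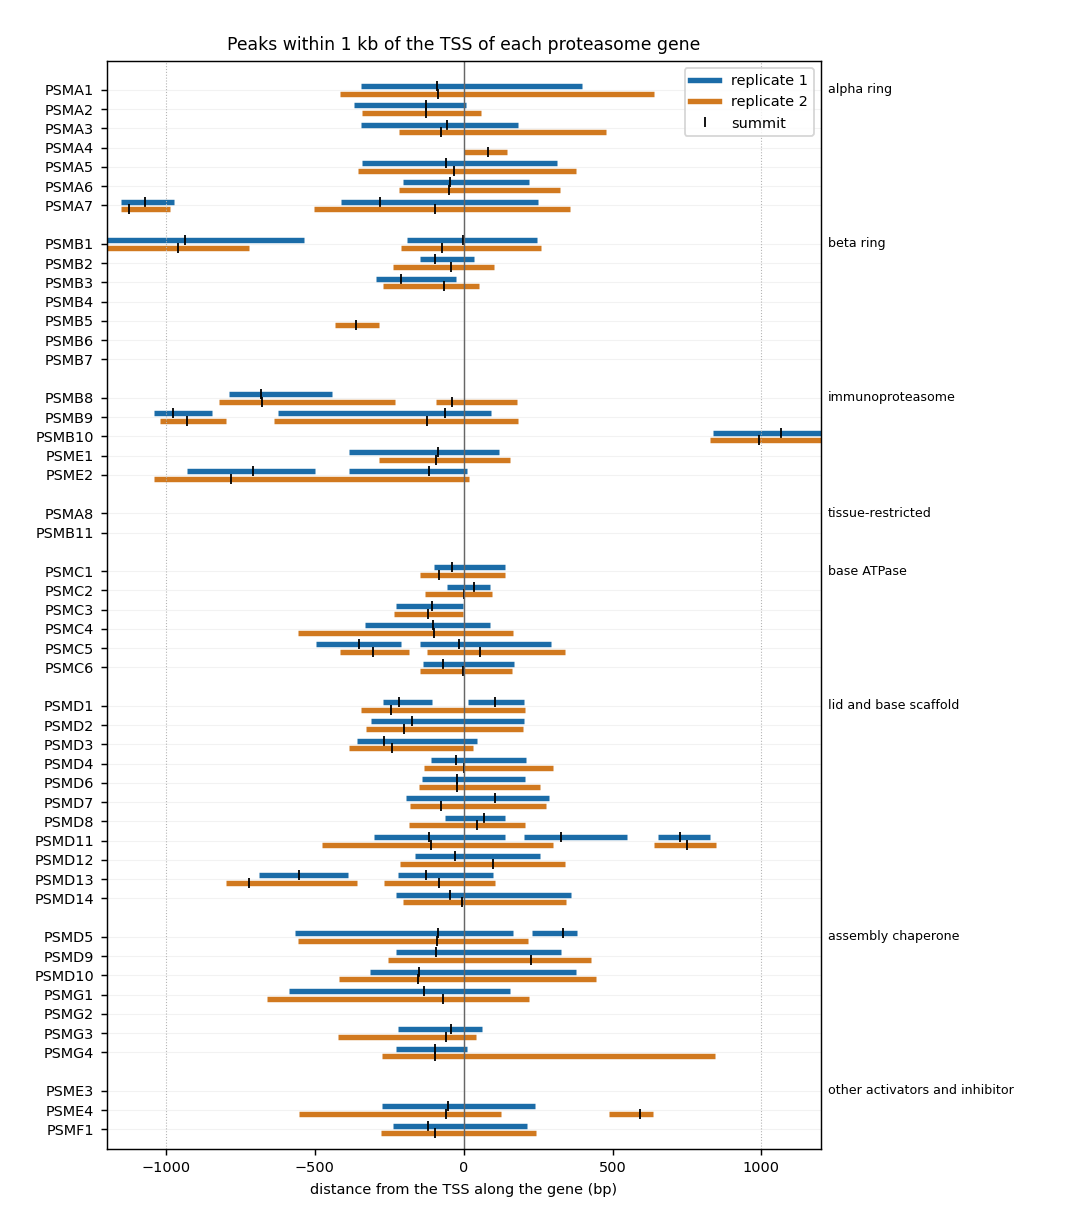
Peaks within 1 kb of the TSS of each proteasome gene, drawn by their distance from the TSS in bp along the gene (x axis, negative upstream), in replicate 1 (blue) and replicate 2 (orange), with a black tick at each summit. Most members have a peak over the TSS in both replicates, while the peaks of PSMB8 and PSMB10 that both replicates share lie to the side of it.

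The ATPases of the base, which thread substrates into the core, all had a promoter peak, 6 of 6. Among all genes it was 52.3%, and 68.0% among those with 57 to 66 CpGs, which holds the class median of 58.5. The median fold enrichment of the class, 5.02 and 8.61, lay below the 7.97 and 9.06 of all promoters with a peak. PSMC4 was far above the other ATPases at 16.3 and 22.1 with 93 and 120 fragments, or 19.2 ± 4.13 (SD, n = 2), at percentile 93.0 and 99.3 of all promoter peaks. PSMC1 had 3.98 and 6.80, or 5.39 ± 1.99 (SD, n = 2), the lowest value of any member in replicate 1. The ranges of PSMC4 and PSMC1 did not overlap. PSMC6 had 4.85 and 9.06, so its log2 ratio exceeded the common shift by 0.72. PSMC2 had 5.02 and 7.48, PSMC3 5.02 and 8.16, and PSMC5 6.93 and 9.93. PSMC5 also carried a peak of 6.24 and 9.04 with summits 353 and 305 bp upstream, so that its promoter held a pair of separate peaks in each replicate.

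The lid and the non-ATPase part of the base, which recognise and trim ubiquitin chains, had a peak at 11 of 11 genes. Among all genes it was 52.3%, and 73.7% among those with 67 to 75 CpGs, which holds the class median of 70. The median fold enrichment of the class, 6.41 and 7.70, lay below the 7.97 and 9.06 of all promoters with a peak. PSMD14, the deubiquitinase of the lid, had 15.8 and 14.95 with 90 and 65 fragments, or 15.4 ± 0.575 (SD, n = 2). PSMD11 followed with 13.2 and 15.1, and PSMD2, a scaffold of the base, with 11.8 and 12.5. These 3 stood above the rest of the class in both replicates. PSMD1, the other scaffold, had 4.68 and 6.57, or 5.62 ± 1.34 (SD, n = 2), and PSMD4, a ubiquitin receptor, had 5.72 and 7.25. PSMD3, PSMD6, PSMD7, PSMD8 and PSMD12 had between 5.37 and 7.80 in replicate 1 and between 7.02 and 9.06 in replicate 2.

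PSMD13, a lid subunit, changed most between replicates. Its strongest peak had 4.68 in replicate 1 and 9.29 in replicate 2, a log2 ratio 0.80 above the common shift, and its summit moved by 470 bp. The move came from a change of rank between 2 peaks that both lists held. The peak over the PSMD13 start had 4.50 and 9.29, and the peak towards SIRT3, a mitochondrial deacetylase gene that starts 634 bp away on the other strand, had 4.68 and 6.34.

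The assembly chaperones, which help subunits join and are absent from the finished particle, held both the highest and the lowest mean values of the members. PSMD10, also called gankyrin, had 22.4 and 17.8 with 137 and 96 fragments, or 20.1 ± 3.26 (SD, n = 2), at percentile 99.3 and 95.1. PSMD5 had 17.3 and 19.1 with 102 and 114 fragments, or 18.2 ± 1.29 (SD, n = 2). Both act in the assembly of the base. PSMG1, which acts on the core, had 8.84 and 12.4, and PSMD9 had 7.62 and 6.57. PSMG3 had 5.02 and 5.21, or 5.12 ± 0.132 (SD, n = 2), the lowest mean of the 39. PSMG4 had 4.85 and 9.06, a log2 ratio 0.72 above the common shift, and its peak widened from 240 to 1120 bp.

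A promoter peak in both replicates was found at 6 of the 7 chaperone genes, against 52.3% of all genes. It was 76.5% among genes with 86 to 98 CpGs, the group that holds the class median of 90. PSMG2 had no promoter peak. Its nearest peaks lay 105029 bp away in replicate 1 and 44746 bp away in replicate 2, where the peak of 5.21 with 22 fragments fell among other annotated starts of PSMG2. CEP76, a centrosomal gene, starts 319 bp from PSMG2, so the same lack of nearby peaks left it without a promoter peak. PSME3 had none at its canonical start, but a weak peak of 4.85 and 4.30 with 27 and 18 fragments lay 57 and 45 bp upstream of another annotated start of PSME3, itself 9012 bp upstream. With any annotated start allowed, 40 of the 48 members had a peak in both replicates. The remaining regulators were well above these values, since PSME4, the PA200 activator, had 10.2 and 10.1, and PSMF1, the PI31 inhibitor, had 13.7 and 14.7.

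The 2 genes known for use in a single tissue had no promoter peak in either replicate. Among all genes 52.3% had one in both replicates. It was 56.7% among those with 42 to 56 CpGs, the group of PSMA8, and 21.0% among those with 21 to 41, the group of PSMB11. PSMA8 encodes an alpha subunit of the testis and had 42 CpGs, with its nearest peaks 42505 and 42465 bp away. PSMB11 encodes a catalytic subunit of the thymus and had 27 CpGs. It lies 7312 bp from PSMB5, and its nearest peaks were 14091 and 6881 bp away.

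Summits lay mostly just upstream of the start. The median summit position of the strongest peak was -91 and -83 bp from the TSS for the members and -72 and -71 bp for all promoters. Summits were upstream at 35 of 39 and 33 of 41 members, against 76.1% and 73.4% of all promoters with a peak. Between replicates the summit moved by a median of 27 bp, and by at most 50 bp in 26 of the 39. The peaks were 426 and 529 bp wide at the median, against 471 and 521 bp over all promoters. More than 1 promoter peak was listed for 9 and 8 members, or 23.1% and 19.5% of those with a peak, against 23.9% and 26.3% of all promoters with a peak.

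Several members had the start of another annotated gene near their open region. Of the 39 members with a peak in both replicates, 12 (30.8%) had the TSS of another protein-coding gene within 1 kb of the strongest peak in both, against 22.1% of all 10457 such promoters. PSMA1, PSMB10, PSMC5 and PSMD9 were counted only through a partner that does not run head to head. For PSMA1, PSMB10 and PSMD9 it was a gene without a symbol on the same strand, starting 42, 1209 and 19 bp away. For PSMC5 it was FTSJ3, on the other strand, which starts 232 bp downstream of the PSMC5 start. The PSMC5 summits lay 17 and 54 bp from its own start and 249 and 178 bp from that of FTSJ3. For 8 members the partner had a symbol and ran head to head. PSME4 and ACYP2 start 120 bp apart, PSMA2 and MRPL32 202 bp, PSMD10 and ATG4A 236 bp, PSMA7 and SS18L1 375 bp, PSMB9 and TAP1 488 bp, PSMD13 and SIRT3 634 bp, PSME2 and RNF31 888 bp, and PSMB1 and TBP 1062 bp. In 5 members, PSMA2, PSMB1, PSMB10, PSMD10 and PSME2, the summit was nearer to the partner's start in both replicates, so that the value of the peak cannot be assigned to the proteasome gene. For PSMD10, the member with the highest mean, the summits were 151 and 152 bp from its own start and 85 and 84 bp from that of ATG4A, an autophagy protease gene. PSMC4 and PSMD5 had no such partner.

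The promoter sequences were searched for 9 short motifs, from 250 bases before to 50 bases after the TSS, on both strands. A match is a description of letters and was not tested as a bound site. CCGGAAG, the core of ETS factor sites, was found in 18 of 48 members (37.5%), against 14.1% of all promoters and 20.6% of those with a peak in both replicates. The second share covers only promoters with a peak, so its like count is that among the 39 members with a peak in both, which was 16. TGACNNNGC, the core of the antioxidant response element to which the proteasome regulator NFE2L1 can bind, was found in 14 (29.2%), against 14.04% and 14.99%. Among those 39 members, TGACNNNGC was found in 13. Within 100 bp of the summit in both replicates, the same core was found in 5 of 39 members (12.8%), against 8.38% of all such promoters, and CCGGAAG in 11 (28.2%), against 12.9%. None of the 5 immunoproteasome genes held CCGGAAG, and 3 of the 5, PSMB9, PSME1 and PSME2, held TGACNNNGC. In the printed PSMB9 run, the match stands on the opposite strand, just after the first GC box.

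GGGCGG, the GC box, was found in 33 members (68.8%), against 61.3% of all promoters and 78.3% of those with a peak. CCAAT was found in 20 (41.7%), against 36.1% and 38.8%. Among the 39 members with a peak in both replicates, the GC box was found in 29 and CCAAT in 18. TATAAA was found in 5 (10.4%), against 9.71% and 4.49%, and 4 of these 5 were among the 39 members with a peak in both replicates. GCGCATGC, the core of nuclear respiratory factor sites, was found in 2 (4.17%), 1 of them among those 39, against 4.27% and 6.06%. TGANTCA, the AP-1 site, was found in PSMD9 alone (2.08%), against 5.43% and 3.52%. AAGATGGC, the core of YY1 sites, was found in 6 (12.5%), against 4.05% and 5.33%. Only 3 of these 6 were among the 39 members with a peak in both replicates, the set to which the 5.33% relates. These 6 were PSMA2, PSMD5 and PSMD11, and the 3 standard catalytic genes PSMB5, PSMB6 and PSMB7, a grouping noticed after the matches were seen. In 5 of the 6 the match began between 10 and 28 bases after the TSS, and in PSMB5 it began 221 bases before it.

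GAAANNGAA, the core of the interferon response element, was found in 7 members (14.6%), against 7.04% of all promoters and 5.82% of those with a peak. Of these 7 members, 6 were among the 39 with a peak in both replicates. The results below are again for all 48 members. The core GAAANNGAA was found in 4 of the 5 immunoproteasome genes and in 3 of the 43 others, PSMB4, PSMC2 and PSMG4. All 4 immunoproteasome matches had the same letters, GAAAGCGAA, which among the other members stood only in PSMG4 and which 0.330% of all promoters held. The 5 sites are shown with 30 bases each, on the strand that reads as the core, with the core in capitals.
PSMB8 site, chr6:32844032-32844061, hg38, plus strand: aggaggaagtGAAAGCGAAagccacagatc
PSMB10 site, chr16:67936852-67936881, hg38, minus strand: gggtaaaggcGAAAGCGAAagcaggaagta
PSME1 site, chr14:24136189-24136218, hg38, minus strand: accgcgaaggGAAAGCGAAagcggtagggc
PSME2 site, chr14:24146619-24146648, hg38, minus strand: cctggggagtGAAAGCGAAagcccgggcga
PSMG4 site, chr6:3258904-3258933, hg38, plus strand: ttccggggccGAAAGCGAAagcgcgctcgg

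With the TSS as base 0, the core spanned bases -3 to 5 in PSMB8, -21 to -13 in PSMB10, 6 to 14 in PSME1, -28 to -20 in PSME2 and -33 to -25 in PSMG4. The core in PSME1, PSME2 and PSMG4 lay inside a peak in both replicates, the core in PSMB8 lay inside a peak in replicate 2 only, and the core in PSMB10 lay in no peak. PSMB9, whose start was covered in both replicates, had no match of GAAANNGAA in this window.

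Other large sets of genes for common machinery were read in the same way. Cytosolic ribosomal protein genes had a promoter peak in both replicates at 57 of 86 (66.3%), with a median fold enrichment of 6.58 and 8.39, and mitochondrial ribosomal protein genes at 60 of 78 (76.9%), with 6.93 and 8.38. Among all genes the share was 52.3%. It was 68.0% among genes with 57 to 66 CpGs, which holds the median of 62.5 of the mitochondrial set. The median of the cytosolic set, 66.5, lay between that group and the next, at 73.7%. The proteasome genes, at 81.25%, stood above both sets in share and in median, but close to the mitochondrial set in share. The differences were not tested.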

How the data were processed

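ATAC-seq was carried out by the authors on B2B cells. Reads were mapped to hg38 with Bowtie2 (v.2.4.4), duplicates were removed with custom code, and peaks were called in each replicate with MACS2 (v.2.2.7.1), keeping all remaining reads. The q limit, any shift of reads for the transposase and the handling of mitochondrial reads are not given in the sources used here. In the deposited lists, fold enrichment is a linear ratio, significance is given as −log10 p and −log10 q, and the deposited score was not used.

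From these lists, the number of fragments at a summit was recovered from its fold enrichment and −log10 p, which gave whole numbers within 0.01 for 99.8% and 99.9% of peaks. The total depth is unknown. Peaks of the autosomes, X and Y were set against TSSs of GENCODE 44 with Python 3.11.15, numpy 2.4.6 and pandas 2.3.3, and overlap, recovery and motif steps were tested on simulated data. CpG groups hold 10 parts of the 20007 genes.

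The members and lists were chosen with earlier results of these data known. Named in full were the immunoproteasome genes and their standard counterparts, tissue-restricted genes, members without a peak in both replicates, the 5 highest and 5 lowest by mean fold enrichment, and the 3 departing most between replicates. Alternatives were stricter peaks, equal peak numbers, other windows and starts, and each replicate alone. Values of some listed genes are not reported here.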

Additional observations from a re-analysis of the deposited data

How the results depend on the processing

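Across 10 results and 70 values under other settings, 67 moved by less than 1.5 times or the spread between replicates. The count of members with a peak in both replicates lay between 37 and 40. With replicate 1 left out, 41 members had a peak, and with replicate 2 left out, 39. The immunoproteasome count was 4 with a window of 500 bp or with the summit required in the window, and 3 with a peak within 100 bp of the TSS, a setting added after the data were seen. Matches of TGACNNNGC near the summit depended most on the setting. They were 5 with both replicates, 7 to 9 with a replicate left out, and 13 when the window from 250 bases before to 50 after the TSS was used, among the 39 members with a peak. No paired analysis was possible because there is 1 condition and no test. With 2 replicates an SD is itself uncertain, and the limit of 16 and 13 fragments hides weaker open promoters.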

Other observations

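A further list held genes outside the symbol rule that belong to the proteasome, such as the lid subunit SEM1, or work with it. These had promoter peaks in both replicates at 19 of 22 (86.4%), with a median fold enrichment of 11.3 and 10.2. The share over all protein-coding genes was 52.3%, and it was 76.5% among promoters with 86 to 98 CpGs, the group that holds this list's median of 90. NFE2L1, the transcription factor that raises proteasome genes when proteolysis fails, had 11.8 and 13.6. NGLY1, the deglycosylase that activates it, had 15.3 and 16.1, and DDI2, the protease that cleaves it, had 9.70 and 11.9. UCHL5, a deubiquitinase, had 15.8 and 14.7, ADRM1, the ubiquitin receptor that recruits it, had 13.1 and 13.2, and POMP, the maturation factor of the core, had 10.6 and 9.06. PITHD1, which binds the proteasome, and UBQLN2, a ubiquitin shuttle, had a promoter peak only in replicate 2.

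Of 9 genes of antigen processing and its control, 7 (77.8%) had a promoter peak in both replicates, against 52.3% of all genes and 68.0% of those with 57 to 66 CpGs, the group that holds this list's median of 66. TAP2, the other subunit of the peptide transporter, had 9.88 and 16.8, or 13.3 ± 4.87 (SD, n = 2), and B2M, the class I light chain, had 9.88 and 12.8. The interferon-responsive factor IRF1 had 13.5 and 11.5. NLRC5, the class I transactivator, was lower at 5.02 and 6.34. TAPBP, which loads peptides, had none, and ERAP2, which trims them, had a peak of 4.08 only in replicate 2. The cells were untreated, and no interferon-treated sample was analysed here.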
